A study of Mus musculus with 8 samples.

Results

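The 10 genes described here encode the RGS proteins and the Gi alpha subunits that act directly behind chemokine receptors: Rgs1, Rgs2, Rgs3, Rgs10, Rgs14, Rgs16, Rgs18, Rgs19, Gnai2 and Gnai3. They were chosen by symbol, for what their proteins do and not by a measured value, out of 48321 gene symbols listed in the count tables. Earlier results of these data were known when they were chosen. All 10 were among the 12595 genes that passed the filter on low counts and were tested. The data are RNA-seq read counts from natural killer (NK) cells that were sorted from lung and spleen as CD45+ TCRb- NK1.1+ cells, from C57/Bl6 mice that were either Wt or KO, with 2 libraries in each of the 4 groups. KO stands for Ccl5ΔPE/ΔPE, a germline deletion of the proximal enhancer of Ccl5 made with a pair of guide RNAs, so every cell of these mice carries it. No treatment is named, the mice were of mixed sexes, and the ages behind single libraries are not given in the sources used here. The labels do not say whether separate mice gave the libraries of a group, and each p-value measures only the spread between these libraries, which may be technical.

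Chemokine receptors signal through heterotrimeric G proteins of the Gi class. A receptor bound by its chemokine loads the Gi alpha subunit with GTP, alpha and beta-gamma subunits part, and both act on effectors that steer migration and adhesion. RGS proteins (regulators of G protein signalling) speed up GTP hydrolysis by the alpha subunit and so end the signal, and in lymphocytes they are known for limiting how long and how strongly a cell answers a chemokine. Rgs1, Rgs2, Rgs3, Rgs16 and Rgs18 belong to the small R4 family, Rgs10 and Rgs14 to the R12 family and Rgs19 to the RZ family. Ccl5, the chemokine whose enhancer was deleted, acts through chemokine receptors that couple to Gi.

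Rgs2, Rgs1, Rgs18 and Rgs16 lie on chromosome 1 among other genes of the R4 family. In GRCm38 Rgs2 occupies 143999338 to 144004161 and Rgs1 144242296 to 144249242, with Rgs13 between them. Rgs18 follows at 144752683 to 144775435, beyond Rgs21, and after a gap of 8877.6 kb to Rgs8 comes Rgs16, at 153740349 to 153745468, with Rgsl1 next to it. Of these neighbours Rgs21, Rgs8 and Rgsl1 had 0 reads in all 8 libraries and Rgs13 had 1 read in each spleen Wt library alone, so expression in this stretch was detected at Rgs2, Rgs1, Rgs18 and Rgs16. The other members are spread over the genome, Rgs3 on chromosome 4, Rgs10 on chromosome 7, Rgs14 on chromosome 13, Rgs19 on chromosome 2, Gnai2 on chromosome 9 and Gnai3 on chromosome 3.

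Promoter sequence was matched for 6 of the 10 members (Rgs2, Rgs3, Rgs10, Rgs16, Rgs19 and Gnai3; none for Rgs1, Rgs14, Rgs18 and Gnai2). Each window runs from 250 bases before to 50 bases after the RefSeq start site and is written 5′ to 3′ on the gene's own strand. The windows of 3 are shown: those of Rgs2 and Rgs16, which were both higher in lung than in spleen in either genotype, and that of Gnai3, the member whose level varied least. Capitals mark matches, on either strand, to the motifs searched, which were TGANTCA (AP-1), TGACGTCA (CRE), TGTGGT and TGCGGT (RUNX) and CCGGAAG (ETS). The Rgs2 window is chr1:144004100-144004399 on the minus strand, the Rgs16 window chr1:153740103-153740402 on the plus strand and the Gnai3 window chr3:108146103-108146402 on the minus strand, all in GRCm38.p6.
Rgs2: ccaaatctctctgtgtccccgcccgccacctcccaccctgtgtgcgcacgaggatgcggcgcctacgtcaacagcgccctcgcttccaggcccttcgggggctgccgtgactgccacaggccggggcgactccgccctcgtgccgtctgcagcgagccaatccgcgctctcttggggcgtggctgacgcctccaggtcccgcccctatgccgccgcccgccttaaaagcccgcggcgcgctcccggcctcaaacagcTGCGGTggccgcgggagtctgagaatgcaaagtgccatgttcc
Rgs16: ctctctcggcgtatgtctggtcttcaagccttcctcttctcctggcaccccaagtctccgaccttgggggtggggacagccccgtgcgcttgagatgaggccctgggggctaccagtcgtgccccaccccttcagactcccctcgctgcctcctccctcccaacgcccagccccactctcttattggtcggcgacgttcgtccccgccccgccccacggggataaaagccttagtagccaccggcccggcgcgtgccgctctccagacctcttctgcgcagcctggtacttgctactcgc
Gnai3: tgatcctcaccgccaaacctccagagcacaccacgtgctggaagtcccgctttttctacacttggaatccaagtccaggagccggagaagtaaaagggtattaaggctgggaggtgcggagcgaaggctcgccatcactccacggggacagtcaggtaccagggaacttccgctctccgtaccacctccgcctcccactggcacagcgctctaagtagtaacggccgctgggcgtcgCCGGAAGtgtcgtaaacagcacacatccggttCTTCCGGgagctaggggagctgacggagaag
The Rgs2 window held 1 match to TGCGGT, 7 bases after the start site, and 6.45% of 32851 promoters of the same length held that motif. The Gnai3 window held 2 matches to CCGGAAG, 13 bases before and 19 bases after the start site, against 8.86% of all promoters with at least 1. No other searched motif was found in the windows of the 6 members, among which Rgs3 and Rgs19 had more than 1 start site and window. Their shares of all promoters were 7.81% for TGANTCA, 1.79% for TGACGTCA and 16.8% for TGTGGT. A match is a description of the letters in the window.

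Between 3132963 and 26482366 reads were counted per library, and a floor of 3 reads was 0.115 to 0.977 CPM (reads of a gene scaled to a common library total). Ccl5, the gene whose enhancer was deleted, was at 19480 and 18310 CPM in the lung Wt libraries and 2987 and 3189 CPM in the lung KO libraries. It was at 16650 and 15630 CPM in Wt spleen and 2671 and 2428 CPM in KO spleen, so each KO library carried the level its label calls for. The NK cell markers were high in every library, with 8 of 8 tested, which fits the labelled cell type. Their summed level was 49300 to 50700 CPM in Wt lung and 38900 to 39300 CPM in KO lung, where 5 of the 8 were lower and 2 higher in KO. In spleen it was 35400 to 35900 CPM in Wt and 46000 to 48300 CPM in KO, where 6 were higher and 2 lower. Lung epithelial, endothelial and stromal markers summed to 267 to 274 CPM in Wt lung, 375 to 417 CPM in KO lung and at most 0.65 CPM in spleen. In such bulk libraries a change in the share of cells that carry a transcript and a change in the amount per cell cannot be told apart.

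Levels are given as CPM scaled by TMM (a factor per library that evens out composition), and the text calls a difference when the adjusted p of edgeR's quasi-likelihood test over all 12595 genes was under 0.05. Compared with each other per kilobase of transcript, the 2 Gi alpha genes and Rgs19, Rgs1 and Rgs2 were the abundant members. In lung Wt the group means were 172 CPM per kb for Gnai2, 130.3 for Gnai3, 130.2 for Rgs1, 79.0 for Rgs19, 48 for Rgs2 and 36.9 for Rgs18. Rgs3, Rgs14, Rgs16 and Rgs10 lay lower there, between 2.15 and 9.44 CPM per kb. In spleen Wt Rgs19 reached 110 CPM per kb whereas Rgs1 and Rgs2 were at 19.5 and 17.6 CPM per kb.

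**Figure D1:**
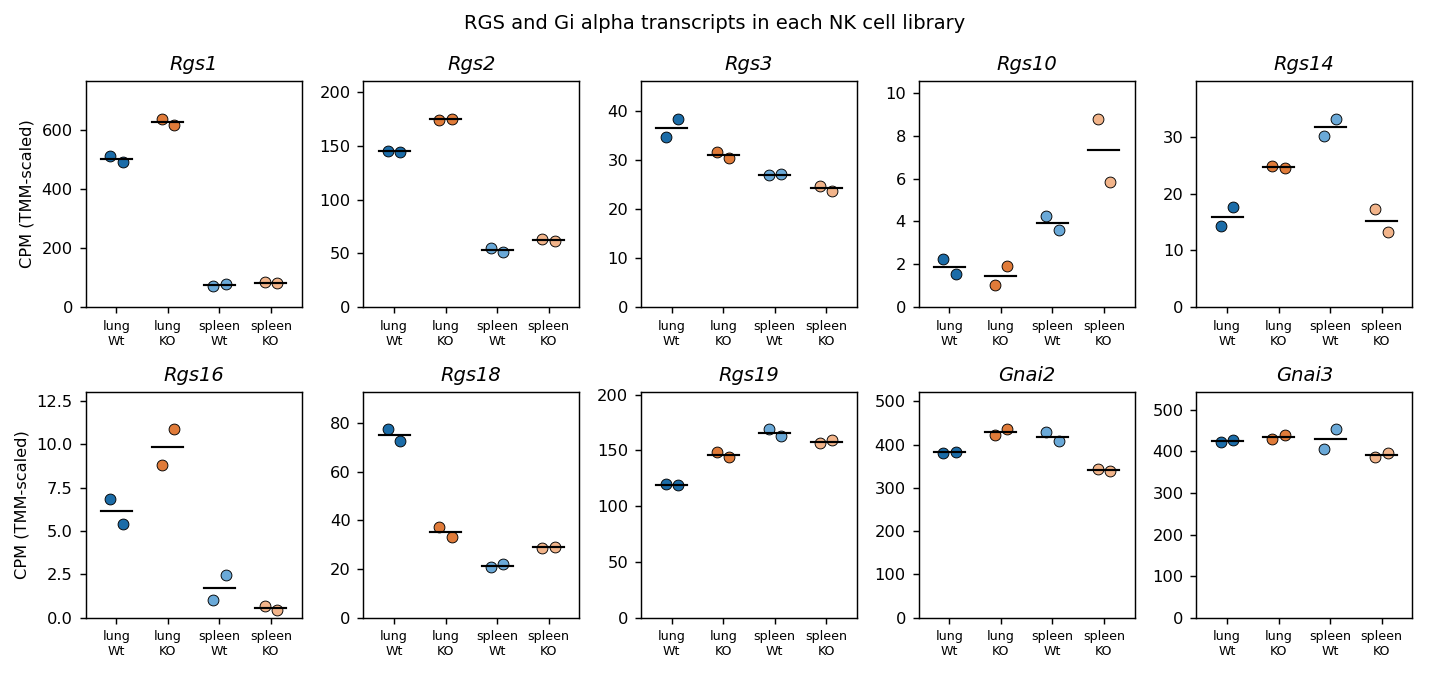
TMM-scaled CPM (vertical axis, from 0, own scale per gene) of the 10 members in each of the 8 libraries; points are libraries and lines the mean of 2. Rgs1 sits between 490 and 637 CPM in the lung libraries and between 70.8 and 83.4 CPM in the spleen libraries, and Rgs14 is highest in spleen Wt but second highest in lung KO.

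How the members differ between lung and spleen was asked first, within each genotype. In Wt cells 9 of the 10 members were called, 5 higher and 4 lower in lung, where 57% of all tested genes were called (27.7% higher and 29.3% lower). In KO cells all 10 were called, 8 higher and 2 lower in lung, against 65.6% of all tested genes (33.9% higher and 31.7% lower). The median size of the difference in Wt, regardless of sign, was 0.99 on the log2 scale over the members and 0.37 over all tested genes. In KO it was 0.61 and 0.42. The median log2 difference with its sign was 0.19 over the members and -0.01 over all tested genes in Wt, and 0.35 and 0.02 in KO. Both organ comparisons share libraries with the genotype comparisons given further on.

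Rgs1, which restrains chemokine-driven movement of lymphocytes and is a well known mark of lymphocytes lodged in tissue, gave the clearest organ difference. It was at 510 and 490 CPM in Wt lung, 637 and 615 CPM in KO lung, 70.8 and 78.7 CPM in Wt spleen and 83.4 and 79.6 CPM in KO spleen. Every lung library was far above every spleen library. The fold over spleen was 6.60 in Wt (log2 2.72 ± 0.06 SE, adjusted p = 6.3e-32) and 7.78 in KO (log2 2.96 ± 0.05 SE, adjusted p = 1.6e-35). Among the 12595 genes Rgs1 had the smallest p of the Wt organ comparison and the third smallest (rank 3) of the KO one.

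Rgs2, a related protein that acts on Gq as well as on Gi, followed the same order of groups at a lower level. Its levels were 145.2 and 144.5 CPM in Wt lung, 174 and 175 CPM in KO lung, 55.1 and 51.1 CPM in Wt spleen and 63.5 and 61.6 CPM in KO spleen. The lung and spleen libraries did not overlap, and lung exceeded spleen by 1.47 ± 0.07 (SE) on the log2 scale in Wt (adjusted p = 2.4e-20) and 1.5 ± 0.06 in KO (adjusted p = 2.2e-23). The organ calls of Rgs1 and Rgs2 were kept in all 20 alternatives run for each.

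Rgs16, an R4 member induced when lymphocytes are activated, was scarce but showed the widest relative range. It was at 6.82 and 5.43 CPM in Wt lung, 8.78 and 10.9 CPM in KO lung, 0.997 and 2.45 CPM in Wt spleen and 0.652 and 0.459 CPM in KO spleen. The spleen values rest on 4 and 21 reads in Wt and 2 and 12 reads in KO, and the library with 2 reads is under the floor. All lung libraries were above all spleen libraries, by 1.68 ± 0.32 (SE) on the log2 scale in Wt (adjusted p = 3e-05) and 4.34 ± 0.32 in KO (adjusted p = 8.9e-15). From summed reads the KO ratio was 20.95, with an exact 95% interval of 12.02 to 39.45 that covers counting error only. Without spleen Wt library 2 the Wt difference was 2.65. An antisense gene, Gm28513, overlaps 236 bases (10.1%) of Rgs16 exons and had 0 to 9 reads per library. Whether counting used strand is not given in the sources used here.

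Rgs18, best known from platelets and megakaryocytes, where it is abundant, was at 77.3 and 72.7 CPM in Wt lung, 37.2 and 33.1 CPM in KO lung, 20.9 and 21.9 CPM in Wt spleen and 28.7 and 29.2 CPM in KO spleen. The lung Wt libraries stood above all others. Lung exceeded spleen by 1.81 ± 0.10 (SE) on the log2 scale in Wt (adjusted p = 2.1e-18) and by 0.26 ± 0.09 in KO (adjusted p = 0.014). With a trend with GC content removed from each library these were 1.15 and 0.46, both called. The KO difference lost its call in DESeq2 (0.27) and without lung KO library 1 (0.20) or spleen KO library 2 (0.29). The latter library holds most of the reads of its group, 26482366 against 3132963. Of 4 tested platelet and megakaryocyte markers 3 were higher in lung in either genotype, and their part in this difference was not tested.

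Rgs3, a longer R4 member that also binds beta-gamma subunits, differed less. It was at 34.9 and 38.5 CPM in Wt lung, 31.7 and 30.6 CPM in KO lung, 26.9 and 27.3 CPM in Wt spleen and 24.8 and 23.8 CPM in KO spleen. Lung was higher by 0.41 ± 0.11 (SE) in Wt (adjusted p = 0.0011) and 0.37 ± 0.10 in KO (adjusted p = 0.0011), both on the log2 scale. The KO difference was 0.09 and not called with the GC trend removed, and it was not called in DESeq2 (0.37) or at 0.33 without spleen KO library 2.

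The remaining RGS members were lower in lung, except Rgs14 in KO cells. Rgs10, a small RGS protein selective for Gi alpha, was at 2.23 and 1.55 CPM in Wt lung, 1.02 and 1.90 CPM in KO lung, 4.24 and 3.62 CPM in Wt spleen and 8.80 and 5.85 CPM in KO spleen. It was lower in all lung libraries, with log2 differences of -0.92 ± 0.36 (SE) in Wt (adjusted p = 0.028) and -2.01 ± 0.31 in KO (adjusted p = 5.5e-07). The Wt call rests on 24 reads in lung and 48 in spleen. It was lost on leaving out any of the libraries compared, lung Wt 1 or 2 or spleen Wt 1 or 2, with differences of -1.28 to -0.76, as well as in DESeq2 (-0.97) and with the GC trend removed (-0.82).

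Rgs14, which carries a GoLoco motif that holds inactive Gi alpha beside its RGS domain, was at 14.3 and 17.6 CPM in Wt lung, 24.9 and 24.6 CPM in KO lung, 30.2 and 33.2 CPM in Wt spleen and 17.3 and 13.2 CPM in KO spleen. In Wt it was lower in lung by -1.06 ± 0.13 (SE, adjusted p = 9.4e-09) and in KO it was higher in lung by 0.85 ± 0.12 (adjusted p = 1.3e-07), both log2 differences. The order of the organs was thus opposite in the 2 genotypes. The KO difference was 0.52, still called, without spleen KO library 2.

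Rgs19, also called GAIP, was at 119.9 and 118.9 CPM in Wt lung, 148 and 144 CPM in KO lung, 169 and 163 CPM in Wt spleen and 157 and 159 CPM in KO spleen. It was lower in lung by a log2 difference of -0.47 ± 0.06 (SE) in Wt (adjusted p = 7.1e-09) and -0.12 ± 0.05 in KO (adjusted p = 0.038). The small KO difference lost its call in 10 of 20 alternatives. These included DESeq2 (-0.12) and leaving out lung Wt library 2, lung KO library 1, lung KO library 2 or spleen KO library 2, with differences of -0.13 to -0.10. It was -0.31, and called, with the GC trend removed.

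The Gi alpha genes varied least. Gnai2, the main Gi alpha subunit of lymphocytes, was at 381 and 382 CPM in Wt lung, 422 and 435 CPM in KO lung, 428 and 409 CPM in Wt spleen and 343 and 338 CPM in KO spleen. Gnai3, its close relative, was at 422 and 428 CPM in Wt lung, 430 and 438 CPM in KO lung, 405 and 453 CPM in Wt spleen and 387 and 397 CPM in KO spleen. The highest group mean of Gnai3 was 1.11 times the lowest, and that of Gnai2 1.26 times the lowest.

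In Wt cells Gnai2 was slightly lower in lung, with a log2 difference of -0.13 ± 0.04 (SE, adjusted p = 0.010), and the Gnai3 libraries of both organs overlapped (-0.03 ± 0.05, adjusted p = 0.63). In KO cells both were higher in lung, Gnai2 by 0.34 ± 0.04 (adjusted p = 4.8e-09) and Gnai3 by 0.14 ± 0.04 (adjusted p = 0.0044). With the GC trend removed the Gnai2 differences were 0.07 in Wt and -0.06 in KO, neither called, while Gnai3 was at -0.15 and 0.22, both called. The exons of Gnai2 have the highest GC content of the members (56.7%). The Wt call of Gnai2 was also lost in DESeq2 (-0.11) and without lung Wt library 1 (-0.11) or spleen Wt library 1 (-0.10), and the KO call of Gnai3 without lung KO library 2 (0.13).

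**Figure D2:**
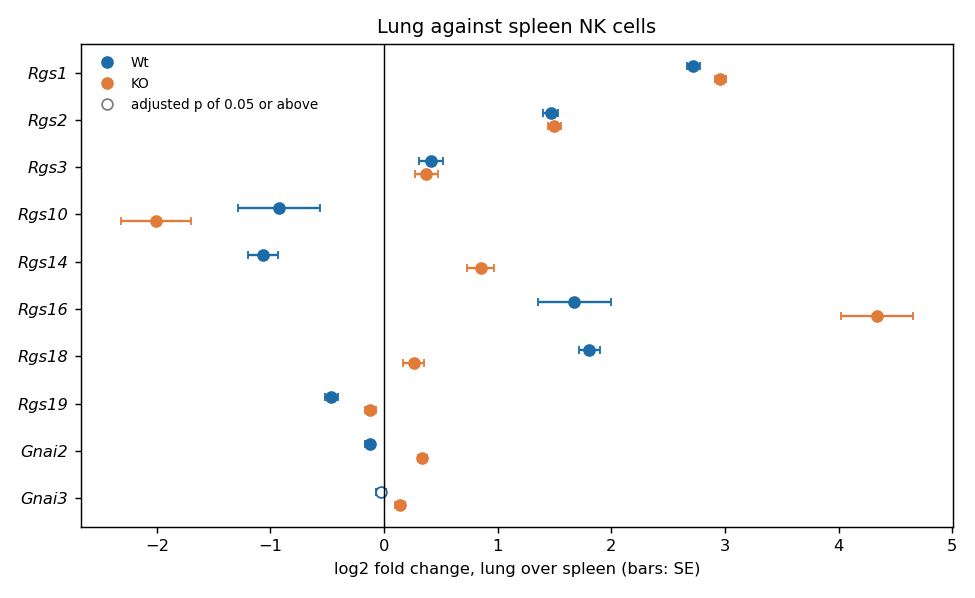
Log2 fold change of lung over spleen for each member in Wt (blue) and KO (orange) cells, with SE bars from edgeR; open points have an adjusted p of 0.05 or above. Rgs1 lies at 2.72 and 2.96 and Rgs2 at 1.47 and 1.5, whereas Rgs14 lies at -1.06 in Wt and 0.85 in KO.

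Added up per kilobase of transcript, the 8 RGS members gave 319 and 311 CPM per kb in Wt lung and 363 and 355 CPM per kb in KO lung. The spleen sums were lower, at 183.7 and 182.1 CPM per kb in Wt and 184.6 and 179.4 CPM per kb in KO. The sum of Gnai2 and Gnai3 was 302 and 304 CPM per kb in Wt lung, 322 and 331 in KO lung, 317 and 323 in Wt spleen and 273.6 and 274.4 in KO spleen. The ratio of the RGS sum to the Gi alpha sum was therefore 1.02 to 1.13 over the lung libraries and 0.563 to 0.674 over the spleen libraries, which did not overlap. Such a ratio of transcripts says nothing of protein. The ratio was not tested. Within a genotype the organs stand with 2 libraries against 2, where an exact permutation test could not go below 0.333.

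The make-up of the RGS sum differed between organs. Rgs1 made up 41.3% of it in lung Wt and 45.4% in lung KO but 10.7% in spleen Wt and 11.7% in spleen KO. Rgs19 held the first place in spleen, with 60.0% in Wt and 57.5% in KO, against 25.1% and 26.9% in lung. Rgs18 was 11.7% of the sum in Wt lung and 4.82% in KO lung, and Rgs14 was 7.36% of it in spleen Wt and 3.55% in spleen KO.

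**Figure D3:**
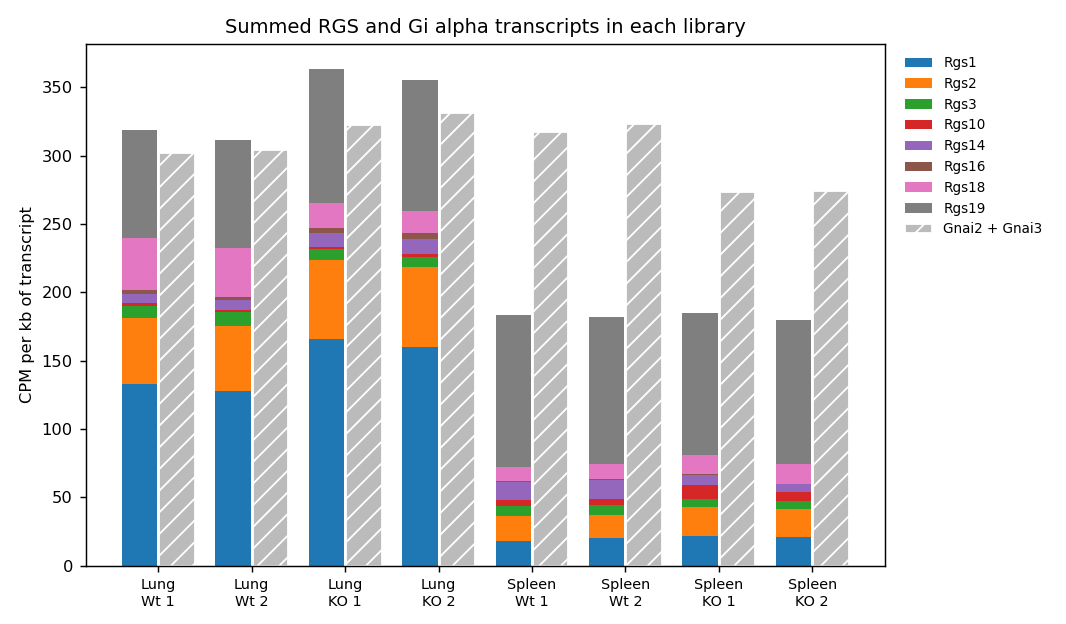
CPM per kb of transcript in each library, stacked over the 8 RGS members (coloured bars) beside the sum of Gnai2 and Gnai3 (hatched bars). The RGS stacks reach 311 to 363 in lung, where Rgs1 is the widest band, and 179 to 185 in spleen, where Rgs19 is.

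The genotype comparisons ask what changed in these genes in NK cells of mice with little Ccl5. In lung 7 of the 10 members were called, 6 higher and 1 lower in KO, while 55.6% of all tested genes were called (29.2% higher and 26.4% lower). The median log2 fold change was 0.22 over the members and 0.02 over all tested genes. In spleen 7 were called again, 3 higher and 4 lower in KO, against 57.1% of all tested genes (28.2% higher and 28.9% lower). The medians there were -0.10 and 0.00. The median size regardless of sign was 0.30 over the members and 0.36 over all tested genes in lung, and 0.27 and 0.33 in spleen. The members' median size was thus below that of all tested genes in both organs. A share of 7 in 10 is not far from the background in either organ, so what follows describes single members by size and direction. The fitted variation between libraries was small, and when it was set to a coefficient of 0.2 the calls left were Rgs18 in lung and Rgs14 and Rgs16 in spleen.

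In lung Rgs18 fell from 75.0 ± 3.3 to 35.2 ± 2.9 CPM (SD, n = 2), a log2 fold change of -1.12 ± 0.09 (SE, adjusted p = 1.9e-13). It was called in all 20 alternatives, at -0.56 with the GC trend removed, and Rgs18 exons have the lowest GC content of the members (33.4%). Platelet and megakaryocyte markers moved in the same direction there. Of 7 listed, 4 were tested and 3 fell, their summed level going from 68.3 to 69.2 CPM in Wt lung to 35.3 to 45.4 CPM in KO lung, with Pf4 at 8.42 and 0.884 CPM and Ppbp at 20.6 and 5.40 CPM (group means). Gp9 was at 0 in every library. In spleen the marker sum was 31.8 to 37.1 CPM in Wt and 19.5 to 20.6 CPM in KO, with 2 of the 4 tested lower and 1 higher, while Rgs18 was higher in KO, from 21.4 ± 0.7 to 28.9 ± 0.4 CPM (log2 0.43 ± 0.10 SE, adjusted p = 0.00052). The summed NK cell markers given above were likewise lower in KO in lung and higher in KO in spleen. The part of these markers in the Rgs18 values was not tested. The spleen call was lost with the GC trend removed (0.13) and without spleen KO library 2 (0.41).

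Rgs14 and Rgs16 were higher in KO in lung and lower in KO in spleen. Rgs14 went from 15.9 ± 2.3 to 24.8 ± 0.2 CPM in lung (log2 0.68 ± 0.14 SE, adjusted p = 7.3e-05) and from 31.7 ± 2.2 to 15.2 ± 2.9 CPM in spleen (log2 -1.23 ± 0.11, adjusted p = 1.5e-11). The KO and Wt libraries did not overlap in either organ. The spleen call of Rgs14 was kept in all 20 alternatives.

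Rgs16 went from 6.13 ± 0.99 to 9.82 ± 1.5 CPM in lung (log2 0.65 ± 0.23 SE, adjusted p = 0.014) and from 1.72 ± 1.0 to 0.555 ± 0.14 CPM in spleen (log2 -2.01 ± 0.47, adjusted p = 0.00043). The lung call was lost with the GC trend removed (0.42), in DESeq2 (0.66), and without lung Wt library 2 (0.55) or lung KO library 2 (0.47). The spleen call compares 14 with 25 reads, a ratio of 0.241 with an exact 95% counting interval of 0.116 to 0.482. It was lost without spleen Wt library 2 (-1.03) or spleen KO library 2 (-1.57).

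Rgs2 was the member called in the same direction in both organs. It was 0.27 ± 0.06 (SE) higher on the log2 scale in lung KO (adjusted p = 6.8e-05) and 0.24 ± 0.07 higher in spleen KO (adjusted p = 0.0041). The spleen call was lost with the GC trend removed (0.15), in DESeq2 (0.25), and without spleen Wt library 2 (0.17) or spleen KO library 2 (0.28). Rgs1 was higher in lung KO, by 0.32 ± 0.04 on the log2 scale (adjusted p = 2.9e-08), and by 0.69 with the GC trend removed. In spleen its difference was 0.08 ± 0.07 (adjusted p = 0.29), and it was -0.17, and called, with the GC trend removed.

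Rgs19 was higher in lung KO by 0.29 ± 0.06 (SE, adjusted p = 5.8e-05) on the log2 scale and at -0.06 ± 0.05 in spleen (adjusted p = 0.34). The lung call was lost at 0.09 with the GC trend removed. Rgs10 was called in spleen, where it went from 3.93 ± 0.44 to 7.32 ± 2.1 CPM (log2 0.72 ± 0.25, adjusted p = 0.013). That call was lost in DESeq2 (0.87) and without spleen Wt library 2 (0.55), and the difference was 1.2 without spleen KO library 2. In lung the Rgs10 libraries of both genotypes overlapped, at 5 to 18 reads each (log2 -0.37 ± 0.45, adjusted p = 0.50). Rgs3 was not called in lung (-0.22 ± 0.10, adjusted p = 0.067) or in spleen (-0.18 ± 0.10, adjusted p = 0.12), but with the GC trend removed it was at -0.48, and called, in lung and at 0.006 in spleen.

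The Gi alpha genes moved little. Gnai2 was 0.17 ± 0.04 (SE) higher in lung KO (adjusted p = 0.00083) and had a log2 difference of -0.29 ± 0.04 in spleen (adjusted p = 1.5e-07). With the GC trend removed the lung difference turned to -0.16, called in the opposite direction, and the spleen difference was -0.03 and not called. Gnai3 was lower in spleen KO by -0.14 ± 0.04 (adjusted p = 0.0078), a call lost in DESeq2 (-0.12) and without spleen Wt library 2 (-0.04). In lung Gnai3 was at 0.03 ± 0.05 (adjusted p = 0.55). With the GC trend removed Gnai3 was at -0.26 in spleen and 0.11 in lung, both called.

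**Figure D4:**
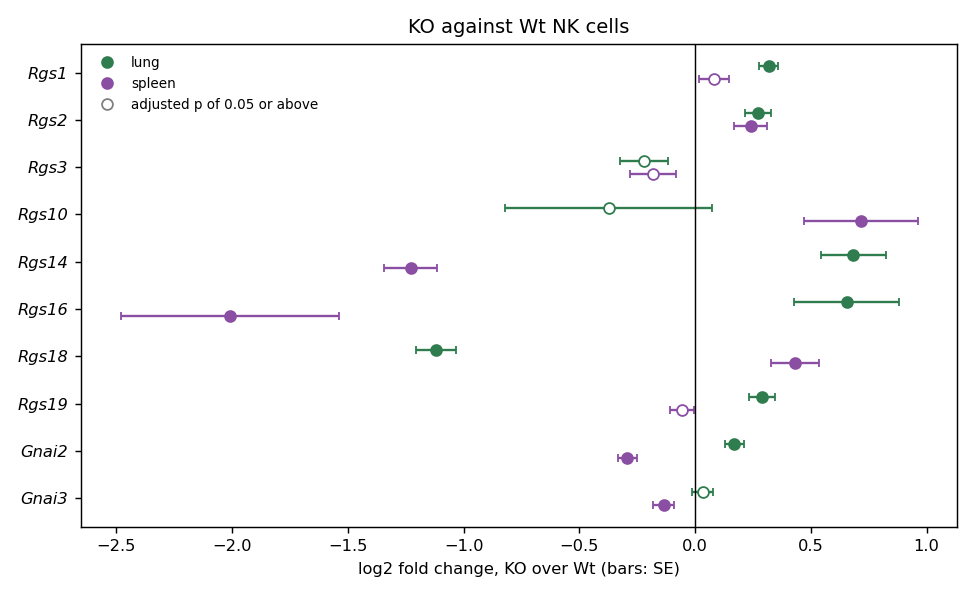
Log2 fold change of KO over Wt for each member in lung (green) and spleen (purple), with SE bars from edgeR; open points have an adjusted p of 0.05 or above. Rgs18 lies at -1.12 in lung and 0.43 in spleen, and Rgs14 at 0.68 in lung and -1.23 in spleen.

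Whether the genotype difference itself differed between organs was tested as an interaction (the log2 KO effect in lung minus that in spleen). It was called for 7 members, 6 higher and 1 lower, while 61.6% of all tested genes were called (32.5% higher and 29% lower). The median size regardless of sign was 0.40 over the members and 0.60 over all tested genes. The largest called among the members were Rgs16 at 2.66 ± 0.52 (SE, adjusted p = 3.6e-05), Rgs14 at 1.91 ± 0.18 (adjusted p = 9.5e-12) and Rgs18 at -1.55 ± 0.13 (adjusted p = 1.4e-12). The Rgs14 and Rgs18 calls were kept in all 19 alternatives, Rgs18 at -0.69 with the GC trend removed, whereas the Rgs16 call was lost without spleen Wt library 2 (1.69). Rgs2 (0.03 ± 0.09, adjusted p = 0.79), Rgs3 (-0.04 ± 0.14, adjusted p = 0.86) and Rgs10 (-1.09 ± 0.51, adjusted p = 0.065) were not called, though Rgs3 (-0.49) and Rgs10 (-1.29) were with the GC trend removed. The other 4 called differences were smaller, from 0.17 for Gnai3 to 0.46 for Gnai2. Of the 5 members called in both organs, Rgs2 went the same way and Rgs14, Rgs16, Rgs18 and Gnai2 went opposite ways, Gnai2 not once the GC trend was removed. The same count over all tested genes is not given here, so this split describes single members and is no result about the members as a set.

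Immediate early genes and markers of other cells also differed between the groups. Their counts stand against the shares of all tested genes called in each comparison, given above. Immediate early genes, which are switched on within minutes of stimulation or of cell handling, were higher in lung KO for 9 of 13 tested and lower for 1, with a median log2 fold change of 0.66. In spleen KO 10 of the 13 were lower, with a median of -0.73, where Rgs16 was lower, Rgs2 higher and Rgs1 not called. Nr4a1 was 1.90 ± 0.08 (SE) higher in lung KO (adjusted p = 2.2e-21), and Dusp1 was 1.03 ± 0.05 higher in lung KO (adjusted p = 2.1e-20) and lower in spleen KO at -2.13 ± 0.14 (adjusted p = 4.1e-15). Between organs 9 of 13 were higher in lung in Wt and 13 of 13 in KO. Of 8 lung epithelial, endothelial and stromal markers 6 were tested and all 6 were higher in lung in either genotype. Between genotypes in lung 3 were higher and 1 lower in KO, with a median log2 fold change of 0.17, and among them Sftpc, a surfactant gene, was at a mean of 154 CPM in Wt lung and 266 CPM in KO lung. Erythroid markers summed to 22.1 to 25.3 CPM in Wt lung, 41.9 to 46.3 CPM in KO lung and at most 1.05 CPM in spleen. B cell markers were lower in lung for 5 of 5 tested in either genotype, summing to 248 to 307 CPM in lung and 516 to 630 CPM in spleen. T cell markers were lower in lung for 3 of 5 tested in Wt and 5 of 5 in KO, summing to 319 to 426 CPM in lung and 515 to 625 CPM in spleen. The part of handling or of other cells in the values of the members was not tested.

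The counts of other pathway genes that follow stand against 55.6% of all tested genes called in lung KO (29.2% higher and 26.4% lower). In spleen KO 57.1% were called (28.2% higher and 28.9% lower). Values of these genes are from the main fit alone, and how they stand with the GC trend removed is not given here. Of 12 Gi-coupled chemokine and S1P receptors 10 were tested. In lung KO 7 were higher and 2 lower, led by S1pr5, the sphingosine 1-phosphate receptor for NK cell egress (log2 1.02, adjusted p = 1.2e-18), and Cx3cr1 (0.84, adjusted p = 2.7e-15) above, and Cxcr6 (-0.79, adjusted p = 1e-06) and Cxcr4 (-0.87, adjusted p = 0.00022) below. In spleen KO 4 were higher, among them S1pr1 (0.81, adjusted p = 5.3e-14) and Ccr2 (0.41, adjusted p = 1.4e-10), and 4 lower, among them S1pr4 (-0.92, adjusted p = 1.3e-13) and S1pr5 (-0.51, adjusted p = 3.1e-11).

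Of 14 tested effectors of Gi and beta-gamma subunits, 6 were higher and 3 lower in lung KO and 2 higher and 7 lower in spleen KO. Rac1 and Rac2, GTPases that drive the actin skeleton, were higher in lung KO (0.42, adjusted p = 5.5e-10, and 0.29, adjusted p = 6.5e-09). Rasgrp2, an exchange factor for Rap1, fell in spleen KO (-0.66, adjusted p = 3.4e-12), and Rap1b was lower in lung KO (-0.37, adjusted p = 2.9e-11) and higher in spleen KO (0.14, adjusted p = 0.00074). Of 11 tested beta and gamma subunits 3 were higher and 3 lower in lung KO, and 6 were higher and 1 lower in spleen KO. Gnb2 was 0.75 higher in lung KO (adjusted p = 1.6e-10) and at -0.48 in KO spleen (adjusted p = 5.3e-07), Gnb1 was at -0.60 in KO lung (adjusted p = 3.6e-16), and Gng2 was at -0.33 in lung (adjusted p = 0.00064) and 0.53 in spleen (adjusted p = 3.1e-07).

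Among 7 tested alpha subunits outside the members, 2 were higher and 3 lower in lung KO and 1 higher and 4 lower in spleen KO. Gnas, the stimulatory alpha subunit, was higher in lung KO (0.49, adjusted p = 3.3e-14) and lower in spleen KO (-0.37, adjusted p = 4.5e-11). Of 6 tested receptor kinases and arrestins, which shut off active receptors, 3 were higher in lung KO, among them Adrbk1 (0.65, adjusted p = 2.5e-09) and Grk6 (0.56, adjusted p = 5.5e-07). In spleen KO 1 was higher and 2 were lower, Grk6 (-0.62, adjusted p = 1.2e-09) and Arrb2 (-0.31, adjusted p = 9.1e-07). Of 6 chaperones and non-receptor regulators of alpha subunits, not all of them specific to Gi, 2 were higher and 2 lower in lung KO. There Ric8a, a chaperone of Gi alpha, was at 0.43 (adjusted p = 7.2e-07) and Ric8b at -1.41 (adjusted p = 2.6e-08). In spleen KO 1 was higher and 2 lower, with Ric8b at 0.45 (adjusted p = 0.013) and Ric8a at -0.49 (adjusted p = 1.9e-09).

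For the 3 members whose group means spanned the widest range, the genes of most similar pattern over the 8 libraries were looked up by Pearson's r of log2 CPM among 12594 genes. For Rgs1 they were Plk2 (0.999), Cyp2f2 (0.999) and Cav1 (0.999), for Rgs16 Hist1h1b (0.989), Cd36 (0.988) and Lpin1 (0.987), and for Rgs10 H2afv (0.987), 1700025G04Rik (0.985) and Nmd3 (0.982). The libraries fall into 4 groups, so r here describes mostly the order of the groups. Summed lung epithelial, endothelial and stromal markers also set lung (267 CPM or more) apart from spleen (at most 0.65 CPM). The part of such cells in the Rgs1 pattern was not tested. Among the members themselves Rgs1 and Rgs2 had an r of 0.993 and Rgs18 and Rgs19 an r of -0.985.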

How the data were processed

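RNA-seq was made from NK cells in 8 libraries. Per the labels, 50 bp reads were aligned by the authors with HISAT2 2.1.0 to mm10 (GRCm38) and counted with HTSeq (0.11.1 in the labels, another version in the methods), and the deposited values are whole-number counts for each symbol; annotation and strand setting are not given in the sources used here. Rows for uncounted reads were left out. Reads counted on genes were 44.3% to 46.6% of those counted, without a feature or ambiguous, with other uncounted reads not included. The fit used edgeR 4.0.16 under R 4.3.3 (filterByExpr, TMM, 1 mean per group over 8 libraries, quasi-likelihood test, Benjamini-Hochberg adjustment over 12595 genes, threshold 0.05). It was also run on counts simulated with the variation fitted here, which cannot show whether that variation is too small. The SE comes from the F statistic. Alternatives were other scalings, filters, DESeq2 1.42.0, smaller fits, replicate block, assumed variation, a GC trend removed by a spline (5 degrees of freedom) and leaving out each library. Per-kilobase levels used the longest principal transcript of GENCODE M21. All 10 members are named, with at most 2 genes per list, organ and direction by smallest p. Members and lists were chosen with earlier results of these data known.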

Additional observations from a re-analysis of the deposited data

Results flagged for a closer look

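The KO effect differed between lung and spleen, by the test of the difference itself (quasi-likelihood in edgeR, Benjamini-Hochberg adjusted), in 7 members. The same test called 61.6% of all tested genes, so the count of members is not far from the background. On the log2 scale, as the effect in lung minus that in spleen, the difference was 0.24 for Rgs1 (adjusted p = 0.0077), 1.91 for Rgs14 (adjusted p = 9.5e-12), 2.66 for Rgs16 (adjusted p = 3.6e-05), -1.55 for Rgs18 (adjusted p = 1.4e-12), 0.35 for Rgs19 (adjusted p = 0.00018), 0.46 for Gnai2 (adjusted p = 1.4e-08) and 0.17 for Gnai3 (adjusted p = 0.018). These are the same values as the difference between genotypes in the contrast of lung with spleen. Rgs1 lost the call in DESeq2 (0.21) and without spleen Wt library 2 (0.14) or spleen KO library 2 (0.18), Rgs16 without spleen Wt library 2 (1.69) and Gnai3 in DESeq2 (0.15) and without lung Wt library 1 (0.14), lung KO library 2 (0.16) or spleen Wt library 2 (0.08). With the GC trend removed Rgs19 was at 0.01 and no longer called, Gnai2 was at -0.14 and called in the opposite direction, and Rgs1 and Gnai3 were at 0.86 and 0.38, still called.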

How the results depend on the processing

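With 1 choice changed at a time, or the GC trend removed together with the replicate block, single log2 fold changes of the members kept direction and side of the threshold in 476 values, lost the call in 72, gained it in 15 and turned in 16. Without 1 library these were 363, 29, 3 and 5. The common biological coefficient of variation (BCV) was 2.5%, and an assumed BCV of 0.1 and 0.2 left 3 and 1 members called in lung KO against Wt, 3 and 2 in spleen, 3 and 3 for the interaction and 5 and 4 for lung against spleen in KO, and 0.2 left 5 in Wt. Of all genes they left 4395 and 1557 in lung, 4112 and 1144 in spleen and 4673 and 2011 for the organs in Wt, and 0.2 left 2018 for the interaction and 2316 for the organs in KO (main counts 7000, 7195, 7185, 7753 and 8259). DESeq2 called 4 members in spleen, 4507 genes in lung and 4165 in spleen. Leaving out 1 library gave 3 to 7 members and 4448 to 7493 genes in spleen and 4 to 8 members for the interaction, the lowest without spleen Wt library 2 for members and without spleen KO library 2 for genes.

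With the GC trend removed, alone or with the replicate block, signs turned for Gnai2 in lung (-0.16 and -0.16), for Rgs1 (-0.17 and -0.17), Rgs3 (0.006 and 0.008) and Rgs19 (0.073 and 0.078) in spleen, and for Gnai2 in the interaction (-0.14 and -0.14), between organs in Wt (0.074 and 0.049) and in KO (-0.061 and -0.091). With library totals the interaction of Rgs3 was 0.12. Without 1 library the interaction of Rgs3 ran from -0.15 to 0.012 and that of Rgs2 from -0.01 to 0.10, and the Wt organ difference of Gnai3 from -0.098 to 0.067. The share of called genes that were higher moved by over 10 points from 52.5% to 63.3% (library totals) and 66.1% (BCV of 0.2) in lung, from 49.3% to 31.5% (BCV of 0.2) in spleen, from 52.9% to 63.4% (library totals) and 69.6% (BCV of 0.2) for the interaction, from 48.6% to 36.9% (library totals) for the organs in Wt and from 51.7% to 65.6% (BCV of 0.2) in KO. Library totals moved the median of all genes from 0.03 to 0.19 for the interaction and from -0.01 to -0.12 for the organs in Wt.

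Within an organ, like-numbered libraries of both genotypes had deviations that correlated at -0.01 in lung and 0.17 in spleen. The numbers were therefore not taken as pairs of Wt with KO. Whether a lung and a spleen library came from the same mouse is not given in the sources used here. Pairing across organs was not tested. The main fit treated all libraries as independent in the organ comparisons and the interaction. With the replicate block 7 members were called in lung, 7 in spleen, 8 for the interaction, 9 and 8 for the organs in Wt and KO. Of all genes the block left 7012 called in lung, 7298 in spleen, 7724 for the interaction, and 6291 and 6235 for the organs in Wt and KO. With it Gnai3 between organs in Wt was at 0.02, and Rgs3 (0.33) and Rgs19 (-0.12) between organs in KO were not called. Rgs10 and Rgs16 were not tested with at least 10 counts in every library, nor Rgs16 in a fit of the 4 spleen libraries. The cause of these changes was not tested. Depth limits Rgs10 and Rgs16 most.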

Other observations

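Of 16 other RGS genes, 7 had a read and 1 was tested. Rgs12, a multidomain RGS protein that also carries a GoLoco motif, was at group means of 2.66 and 4.35 CPM in lung (Wt, then KO) and 1.85 and 3.81 CPM in spleen. It was higher in KO in lung (log2 0.78 ± 0.32 SE, adjusted p = 0.038) and in spleen (0.86 ± 0.31, adjusted p = 0.017). Rgs6, outside the genes tested, had 13 and 3 reads in the lung Wt libraries and 0 reads in the other 6 libraries. It was singled out after its reads were seen.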
